A study of Homo sapiens with 6 samples.

Results

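The genes described are 46 nucleolar factors of ribosome biogenesis, taken by symbol from a list of genes with known roles. The list was drawn up with earlier results of these data known. All 46 were found among the 16809 genes of the deposited expression table, and all 46 passed the minimum of a mean of 1 TPM that 11927 genes passed. TPM gives each gene's length-corrected part of the transcripts in a library. CAL-27, the cells used, is an established line from a human tongue carcinoma. The 3 ESCU libraries were from cells given elesclomol-Cu for 24 h, the copper ionophore elesclomol and copper in equal parts, and the 3 CON libraries were from cells labelled as normal control. The submitters' design text names the transcriptome in cuproptosis, a copper-dependent cell death, as the subject. All libraries share one cell line, and the labels name no genetic alteration, no vehicle for the control and no dose. Nothing in the labels tells whether each library had its own culture; the p-values then reflect only how far these libraries differ from each other, possibly for technical reasons.

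Ribosomes are assembled mainly in the nucleolus. RNA polymerase I transcribes a long precursor rRNA there, snoRNPs, which are small nucleolar RNAs bound to proteins, guide ribose methylation (box C/D) and pseudouridylation (box H/ACA) of that precursor, and large assemblies of helicases, GTPases and scaffold proteins fold and cut it into the small and the large subunit. Many of these genes are known targets of MYC and are highly expressed in dividing tumour cells.

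The libraries of a group correlated across tested genes at r = 0.994 to 0.995 and those of different groups at 0.937 to 0.939, where genes are not independent replicates. The squamous epithelial markers listed for CAL-27 were all above 1 TPM on average (8 of 8), and their sum was 2930 to 2980 TPM in ESCU and 2520 to 2640 TPM in CON. The markers did not move together: SFN was at 1230 ± 19.1 TPM in ESCU and 640 ± 31.4 TPM in CON, while TP63 was at 24.5 ± 0.922 TPM in ESCU and 86.8 ± 1.34 TPM in CON and CDH1 at 71.3 ± 3.01 TPM in ESCU and 173 ± 2.33 TPM in CON, each called with one sign in the 3 scalings used. Of the marker lists of other cell types, 2 of 5 listed fibroblast genes, 0 of 3 leukocyte genes and 1 of 4 endothelial genes reached a mean of 1 TPM. The fibroblast sum was 4.72 to 5.26 TPM in ESCU and 11.4 to 11.6 TPM in CON, the leukocyte sum 0.69 to 1.16 TPM in ESCU and 1.01 to 1.14 TPM in CON, and the endothelial sum 1.28 to 1.9 TPM in ESCU and 7.14 to 7.47 TPM in CON; their part in the results was not tested. In bulk RNA, fewer cells with a transcript and less of it per cell cannot be told apart.

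As a group the nucleolar factors kept their place in the deposited TPM while most genes were lower. Together they took 0.701%, 0.692% and 0.675% of all TPM in the ESCU libraries, against 0.67%, 0.707% and 0.699% in the CON libraries, and these ranges overlap. The median log2 fold change of the 46 genes, ESCU over CON on the log2(TPM + 1) scale, was -0.02, against -0.50 over all 11927 tested genes, and 41 of the 46 lay above the median gene. In the deposited TPM 38 of 46 (82.6%) had a log2 fold change between -0.5 and 0.5, against 42.9% of all tested genes. This window is centred on 0, while the median gene lay at -0.50. None of the 46 was 2-fold higher and 1, UBTF, was 2-fold lower, against 325 and 2168 of the 11927 tested genes. After the median-of-ratios scaling described below, NOP58 (1.35), DDX21 (1.28), BYSL (1.1), RRP12 (1.03) and NIP7 (1.03) were over 2-fold higher. UBTF was then at -0.71, not 2-fold lower. The share of all tested genes beyond 2-fold after this scaling was not counted.

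With limma and Benjamini-Hochberg adjustment over all tested genes at 0.05, 16 of the 46 were called higher and 17 lower in ESCU. Of all tested genes 13.6% were called higher and 70.0% lower, 83.7% in all. The 16 called higher had every ESCU library above every CON library and the 17 called lower had every ESCU library below every CON library. Such separation was found for 14.0% of all tested genes upwards and 70.3% downwards. The remaining 13 genes were not called.

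TPM has a fixed total, so a rise of abundant genes lowers the share left to the others. How much of the lower values of most genes this accounts for was not tested. The 20 highest genes took 21.8% ± 0.528 of TPM in ESCU and 12.6% ± 0.189 in CON (mean ± SD, n = 3 libraries a group, as throughout). Values were therefore also scaled by the median of ratios, which sets the median gene to 0.00, and by quantile normalization, which sets it to -0.07. After median-of-ratios scaling 37 of the 46 were called higher and 3 lower (38.0% and 35.8% of all tested genes, 73.8% in all), and the median of the 46 was 0.53. Under quantile normalization 27 were called higher and 6 lower (31.4% and 39.9% of all tested genes, 71.3% in all), with a median of 0.26. The words rose and fell are kept below for genes whose call had the same sign with each of the 3 scalings, which held for 13.5% of all tested genes upwards and 31.2% downwards. By that rule 16 of the 46 (34.8%) rose and 3 (6.52%) fell, and the 16 are those called higher in the deposited TPM. Both other scalings move the median gene upwards, so the rule removes mainly falls and is a weak screen of rises. Of all tested genes 1628 were called higher as deposited and 1614 rose, while 8351 were called lower and 3719 fell. With the 20 highest genes removed, 25 of the 46 were called higher and 11 lower, against 19.2% and 60.9% of the genes then tested (80.1% in all). Removing the trend with transcript GC content gave 18 higher and 15 lower (14.6% and 68.8% of genes, 83.4% in all), and removing that with transcript length gave 16 and 17 (13.3% and 70.9%, 84.3% in all). Limma's treat, which asks for a change beyond 0.5 on the log2 scale, called NOP58 and DDX21 higher and UBTF, NAT10 and WDR12 lower (4.8% and 35.4% of all tested genes, 40.2% in all). A fold change given without a scaling is from the deposited values.

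**Figure D1:**
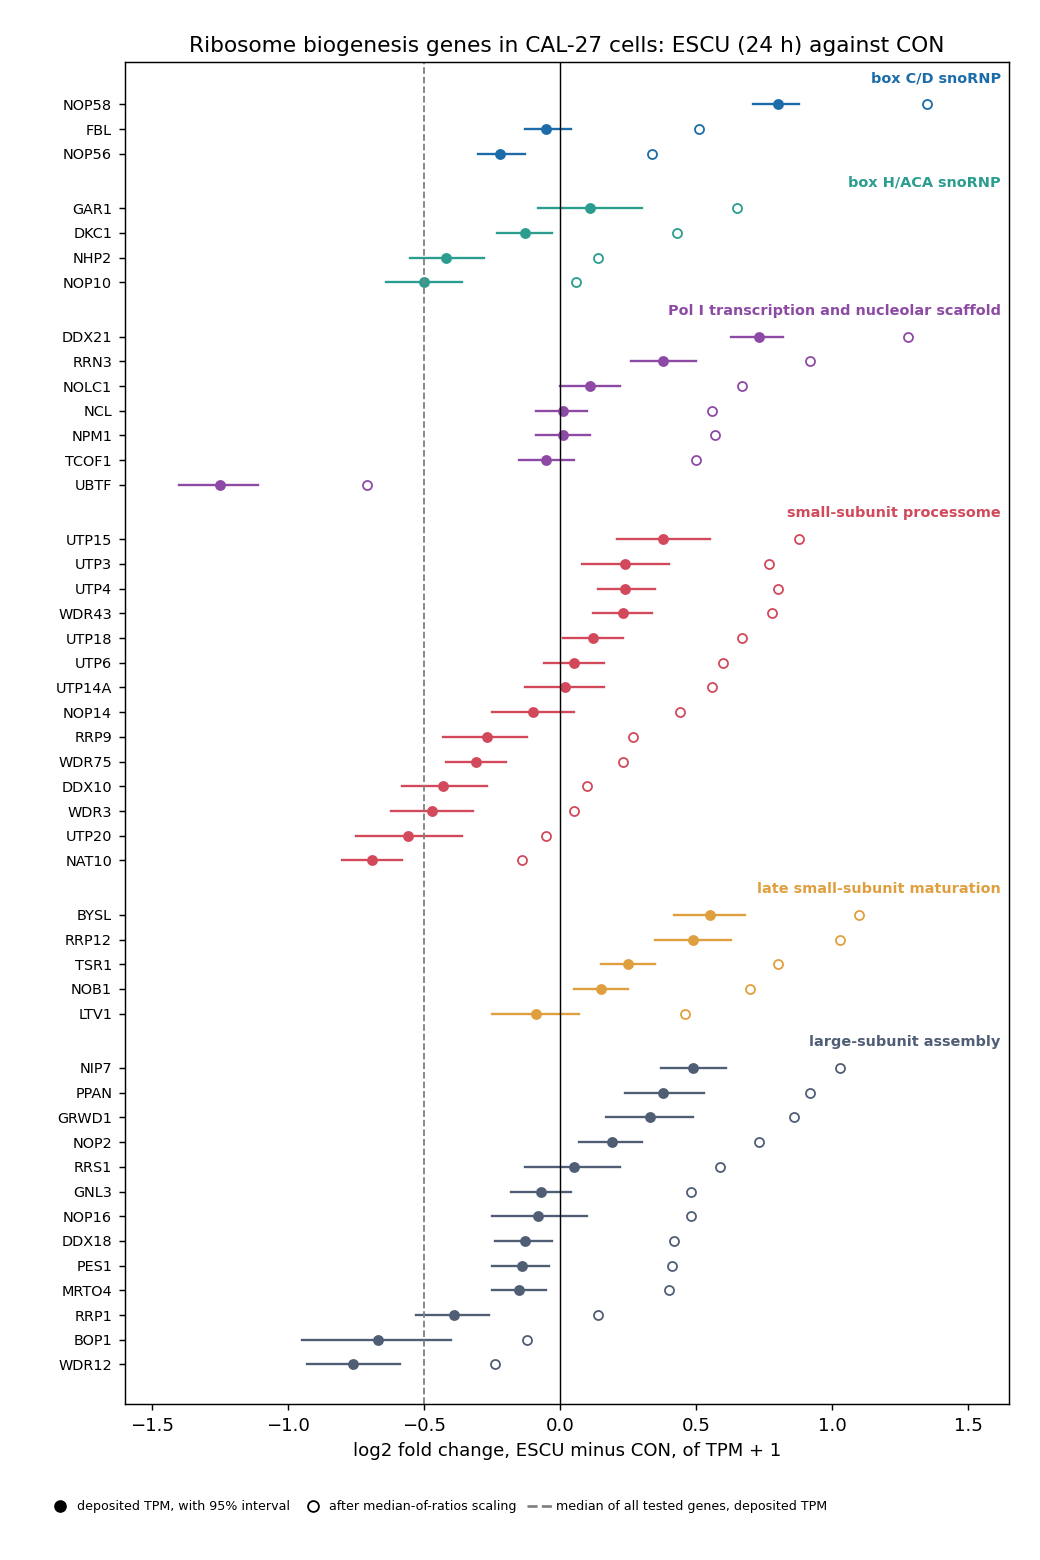
Log2 fold changes of the 46 genes (x axis, ESCU minus CON on log2(TPM + 1)) by role; filled points are the deposited TPM with their 95% intervals, open points the values after median-of-ratios scaling, and the dashed line the median of all tested genes (-0.50). Most filled points lie right of the dashed line, and UBTF at -1.25 stands far to the left.

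Promoters are shown for genes on both sides of these results, because a larger share of nucleolar factors than of other genes had the E-box CACGTG, the letters bound by MYC with MAX, near a start, and genes with it lie on both sides. RefSeq promoter windows (GRCh38.p14, 250 bases before to 50 after a start) were found for 39 of the 46 genes. The 250 bases before a start are printed 5′ to 3′ on the gene's own strand, with each CACGTG in capitals. DDX21, at chr10:68956397-68956646 on the plus strand, and UTP4, at chr16:69132399-69132648 on the plus strand, rose. Another listed start of DDX21, with chr10:68955920-68956169 before it, had no CACGTG in its window. NAT10, at chr11:34105379-34105628 on the plus strand, fell. NOP10, at chr15:34343137-34343386 on the minus strand, was called lower in the deposited TPM and under quantile normalization, but not called after median-of-ratios scaling.
DDX21: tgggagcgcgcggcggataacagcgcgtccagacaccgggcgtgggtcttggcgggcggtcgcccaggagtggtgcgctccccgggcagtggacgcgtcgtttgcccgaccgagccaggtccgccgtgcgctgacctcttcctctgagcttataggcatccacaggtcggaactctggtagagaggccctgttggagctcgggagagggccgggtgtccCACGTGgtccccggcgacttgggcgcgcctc
UTP4: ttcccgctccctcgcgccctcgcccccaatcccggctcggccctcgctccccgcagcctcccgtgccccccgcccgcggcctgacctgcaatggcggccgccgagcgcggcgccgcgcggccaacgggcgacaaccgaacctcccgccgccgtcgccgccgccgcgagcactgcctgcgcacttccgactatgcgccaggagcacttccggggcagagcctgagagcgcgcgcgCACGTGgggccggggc
NAT10: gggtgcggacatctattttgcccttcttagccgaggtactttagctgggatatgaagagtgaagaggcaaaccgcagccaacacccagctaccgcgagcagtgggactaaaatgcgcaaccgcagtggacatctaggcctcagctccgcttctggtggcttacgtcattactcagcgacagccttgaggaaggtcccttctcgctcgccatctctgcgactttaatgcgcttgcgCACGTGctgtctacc
NOP10: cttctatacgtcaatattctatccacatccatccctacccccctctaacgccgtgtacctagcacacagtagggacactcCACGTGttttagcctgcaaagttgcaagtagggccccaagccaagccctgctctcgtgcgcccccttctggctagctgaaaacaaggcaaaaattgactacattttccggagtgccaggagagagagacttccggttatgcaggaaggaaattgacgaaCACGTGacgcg

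Counting all listed windows, CACGTG stood in 18 of 46 member windows (39.1%), against 9.5% of 14378 windows of tested genes and 7.3% of all 35116 windows. By gene, 18 of 39 nucleolar factors (46.2%) and 12.9% of tested genes had it in a window. Of these 18, only NOP10, DDX21, UTP4, UTP14A, UTP18, UTP20 and NAT10 had it wholly within the 250 bases before a start. The others had it across or after the start. The share of tested genes with it before a start was not counted. The ETS core CCGGAA was in 43.5% of member windows, against 27.3% of windows of tested genes, and the NRF1 core in 8.7%, against 1.9%. The heat shock element was in 0 of 46 member windows and in 0.3% of windows of tested genes, and the metal response element TGCNCNC, a loose pattern, in 69.6% and 62.6%. Both strands were searched, TGCNCNC can overlap the end of the NRF1 core, and a match is a description of letters, not of binding. Both directions occurred with and without the E-box. The 18 genes with it had a median log2 fold change of -0.06, with 6 called higher and 6 lower (33.3% each). The 21 genes with a window but no E-box had a median of 0.01, with 8 higher and 9 lower (38.1% and 42.9%). Of all tested genes 13.6% were called higher and 70.0% lower. MYC itself, looked up after the members' values had been seen, stood at 40.6 ± 0.481 TPM in ESCU and 37.1 ± 3.07 TPM in CON, with overlapping groups (0.13, adjusted p = 0.0737, limma; 0.67 and called higher after median-of-ratios scaling).

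The box C/D snoRNP is the enzyme that methylates rRNA ribose, and the transcripts of its paired scaffold proteins, NOP58 and NOP56, differed in direction. NOP58 had 364, 344 and 348 TPM in the ESCU libraries, against 201, 205 and 199.5 TPM in the CON libraries. Every ESCU library was high, and the rise, a log2 fold change of 0.80, adjusted p = 1.24e-08, is the largest among the 46 genes. NOP56 had 140.4, 138 and 142 TPM in the ESCU libraries, against 159, 162 and 168 TPM in the CON libraries. NOP56 was lower in every ESCU library in the deposited TPM (log2 fold change -0.22, adjusted p = 3.54e-04), but the value was 0.34 after median-of-ratios scaling and -0.03, not called, under quantile normalization. FBL had 649, 678 and 625 TPM in the ESCU libraries, against 685, 675 and 655 TPM in the CON libraries. FBL encodes fibrillarin, the methyltransferase itself, and its groups overlapped (-0.05, adjusted p = 0.292; 95% interval -0.13 to 0.04; 0.51 and called higher after median-of-ratios scaling).

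A ratio between 2 genes within a library is the same when the whole library is multiplied by 1 factor, as in median-of-ratios scaling, but quantile normalization can change it. From the deposited TPM 8 ratios between partners were formed after the values had been seen. The log2 ratio of NOP58 to NOP56 was 1.37, 1.32 and 1.29 in the ESCU libraries, against 0.34, 0.34 and 0.25 in the CON libraries, a difference of 1.02 with no overlap. The log2 ratio of FBL to NOP56 averaged 2.21 ± 0.081 in ESCU and 2.04 ± 0.07 in CON. As the pairs were chosen with their values known, the ratios are a description and no test was made of them.

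The box H/ACA snoRNP, which turns uridine into pseudouridine and is also part of telomerase, has DKC1 (dyskerin, the pseudouridine synthase), NHP2, NOP10 and GAR1 as its core. Of its 4 genes 3 were called lower in the deposited TPM and GAR1 was not called; the share called lower is close to the 70.0% of all tested genes, and for no gene did the call keep one sign in all 3 scalings. NOP10 had 224, 239 and 263 TPM in the ESCU libraries, against 316, 355 and 356 TPM in the CON libraries. NHP2 had 221, 221 and 202 TPM in the ESCU libraries, against 315, 272 and 275 TPM in the CON libraries. The small subunits NOP10 and NHP2 were low in every ESCU library, with log2 fold changes of -0.50, adjusted p = 2.02e-05 and -0.42, adjusted p = 5.16e-05, but their values were 0.06 and 0.14, neither called, after median-of-ratios scaling. Under quantile normalization their values were -0.37 and -0.27, both called lower. DKC1 had 118, 117 and 112 TPM in the ESCU libraries, against 123, 132 and 124 TPM in the CON libraries. DKC1 was lower by little (-0.13, adjusted p = 0.0195), and 0.43 and called higher after median-of-ratios scaling; its call in the deposited TPM was lost without CON replicate 2 (-0.10, adjusted p = 0.0751) and without ESCU replicate 3 (-0.11, adjusted p = 0.0714, limma). GAR1 had 28.8, 25.9 and 24.7 TPM in the ESCU libraries, against 26.3, 25.6 and 21.4 TPM in the CON libraries. The groups of GAR1 overlapped (0.11, adjusted p = 0.235), and it was called higher after median-of-ratios scaling (0.65) and under quantile normalization (0.52). Relative to DKC1 in the same library, the log2 ratio of NOP10 averaged 1.06 ± 0.155 in ESCU and 1.44 ± 0.079 in CON, that of NHP2 0.89 ± 0.036 in ESCU and 1.18 ± 0.158 in CON, and that of GAR1 -2.13 ± 0.082 in ESCU and -2.38 ± 0.156 in CON. The 4 genes took 0.0599% ± 0.000599 of TPM in ESCU and 0.078% ± 0.000404 in CON, where the 3 box C/D genes took 0.114% ± 0.00237 in ESCU and 0.104% ± 0.00125 in CON.

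**Figure D2:**
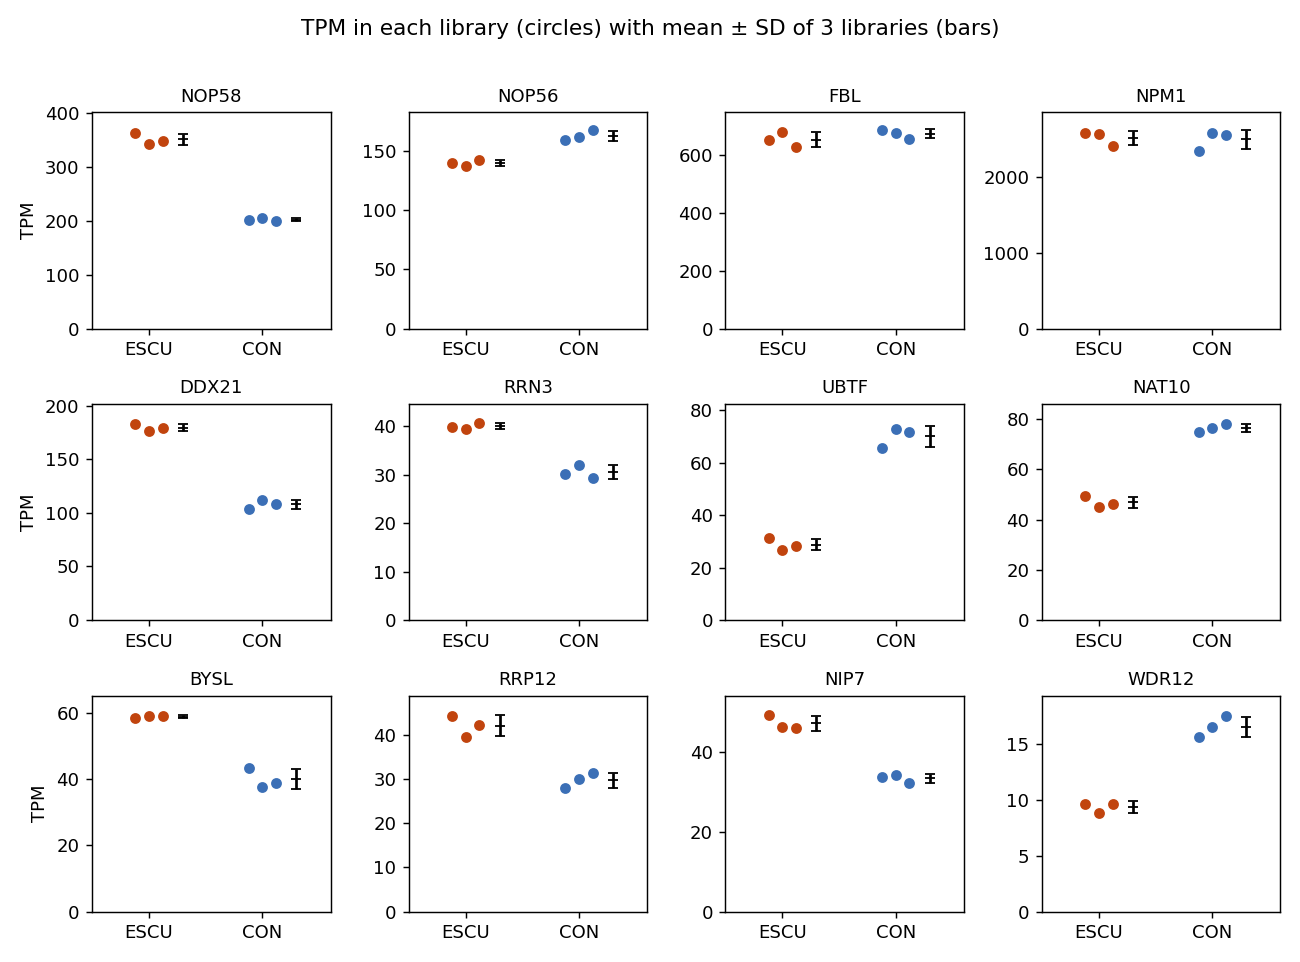
TPM (y axis, from 0) of 12 genes in each library, ESCU left and CON right, as circles with the mean and SD of 3 libraries beside them. NOP58, DDX21, RRN3, BYSL, RRP12 and NIP7 are higher in every ESCU library, UBTF, NAT10, WDR12 and NOP56 are lower in every one, and FBL and NPM1 overlap.

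Genes acting at RNA polymerase I itself gave the widest contrast. UBTF encodes the upstream binding factor that keeps ribosomal DNA open and recruits the polymerase. UBTF had 31.2, 26.8 and 28.4 TPM in the ESCU libraries, against 65.5, 72.7 and 71.7 TPM in the CON libraries. UBTF was low in every ESCU library and fell by more than any other of the 46 genes (log2 fold change -1.25, adjusted p = 2.48e-08; -0.71 after median-of-ratios scaling and -0.91 under quantile normalization). RRN3 encodes the factor that joins the polymerase to the promoter complex. RRN3 had 39.9, 39.5 and 40.7 TPM in the ESCU libraries, against 30.2, 32.1 and 29.4 TPM in the CON libraries. RRN3 was high in every ESCU library and rose (0.38, adjusted p = 5.48e-05). The log2 ratio of UBTF to RRN3 was -0.36, -0.56 and -0.52 in ESCU, against 1.12, 1.18 and 1.29 in CON, so that the UBTF transcript was the less abundant of the pair in ESCU and the more abundant in CON.

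Among the scaffold proteins and chaperones of the nucleolus, the RNA helicase gene DDX21, whose product acts at ribosomal DNA and on snoRNAs, rose. DDX21 had 183, 176 and 179 TPM in the ESCU libraries, against 104, 112 and 108 TPM in the CON libraries. Its log2 fold change was 0.73, adjusted p = 4.97e-08 (SE 0.043), and no ESCU library overlapped a CON library. NPM1, the nucleolar histone and ribosome chaperone, is the most abundant of the 46 transcripts. NPM1 had 2581, 2565 and 2407 TPM in the ESCU libraries, against 2349, 2588 and 2556 TPM in the CON libraries. Its groups overlapped, with a log2 fold change of 0.01, adjusted p = 0.813 and a 95% interval of -0.09 to 0.11. NCL, which encodes nucleolin, stood at 527 ± 17.9 TPM in ESCU and 525 ± 21.0 TPM in CON (0.01; interval -0.09 to 0.10). TCOF1 had 87.5, 83.0 and 87.9 TPM in the ESCU libraries, against 89.3, 87.9 and 90.3 TPM in the CON libraries. TCOF1 encodes treacle, a polymerase I cofactor, and its groups overlapped (-0.05, adjusted p = 0.298). NOLC1, a snoRNP chaperone, was at 191 ± 10.4 TPM in ESCU and 176 ± 6.15 TPM in CON (0.11, adjusted p = 0.0506). NOLC1 became called without ESCU replicate 2 (0.15, adjusted p = 0.0133) and without CON replicate 2 (0.13, adjusted p = 0.0423, limma). NPM1, NCL, TCOF1 and NOLC1 were not called in the deposited TPM and were called higher after median-of-ratios scaling, at 0.50 to 0.67.

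The small-subunit processome, the assembly on the precursor of the small-subunit rRNA, held genes of both directions. Of its 14 genes 5 were called higher and 6 lower in the deposited TPM (35.7% and 42.9%, against 13.6% and 70.0% of all tested genes), and 5 rose and 1 fell (35.7% and 7.14%, against 13.5% and 31.2%). UTP15 had 11.02, 11.2 and 10.6 TPM in the ESCU libraries, against 8.31, 8.31 and 7.86 TPM in the CON libraries. UTP4 had 132, 126 and 129 TPM in the ESCU libraries, against 108, 104 and 115 TPM in the CON libraries. UTP15 (log2 fold change 0.38, adjusted p = 6.93e-04) and UTP4 (0.24, adjusted p = 5.17e-04), subunits of the first complex to bind the precursor, were high in every ESCU library, as was WDR43 of the same complex, at 50.3 ± 0.919 TPM in ESCU and 42.7 ± 1.05 TPM in CON (0.23). WDR75, another subunit of it, went the other way in the deposited TPM, at 34.0 ± 0.895 TPM in ESCU and 42.3 ± 1.00 TPM in CON (-0.31, but 0.23 and called higher after median-of-ratios scaling). UTP3 (0.24, adjusted p = 0.0082) and UTP18 (0.12, adjusted p = 0.0447) also rose. The call of UTP18 had the largest adjusted p of the 33 calls and was lost without ESCU replicate 1 (0.08, adjusted p = 0.168) or 2 (0.13, 0.0517) and without CON replicate 1 (0.11, 0.0992), 2 (0.12, 0.0722) or 3 (0.12, 0.09, limma).

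NAT10 had 49.5, 45.1 and 46.1 TPM in the ESCU libraries, against 74.9, 76.4 and 78.0 TPM in the CON libraries. NAT10, the acetyltransferase that modifies cytidines of small-subunit rRNA, was low in every ESCU library and fell (log2 fold change -0.69, adjusted p = 2.49e-07; -0.14 after median-of-ratios scaling and -0.38 under quantile normalization). UTP20 had 8.27, 8.04 and 8.56 TPM in the ESCU libraries, against 11.2, 13.7 and 13.2 TPM in the CON libraries. UTP20, a large scaffold protein, was lower in the deposited TPM (-0.56, adjusted p = 1.16e-04) but not called after median-of-ratios scaling (-0.05) or under quantile normalization (-0.01). WDR3 (-0.47), the helicase gene DDX10 (-0.43) and RRP9 (-0.27), a protein of the U3 snoRNP that guides the first cuts, were called lower in the deposited TPM and had values of 0.05, 0.10 and 0.27 after median-of-ratios scaling, of which that of RRP9 was called. UTP6, UTP14A and NOP14 were not called in the deposited TPM, at 0.05, 0.02 and -0.10, and were called higher after median-of-ratios scaling, at 0.60, 0.56 and 0.44.

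Late maturation of the small subunit was the role with the highest median, 0.25, and 4 of its 5 genes rose, against 13.5% of all tested genes. BYSL had 58.4, 58.9 and 59.1 TPM in the ESCU libraries, against 43.3, 37.7 and 38.7 TPM in the CON libraries. RRP12 had 44.3, 39.6 and 42.4 TPM in the ESCU libraries, against 28.0, 29.9 and 31.3 TPM in the CON libraries. BYSL (bystin; log2 fold change 0.55, adjusted p = 4.69e-06) and RRP12 (0.49, adjusted p = 2.41e-05), which take the precursor of the small subunit towards export, were high in every ESCU library. TSR1, a GTPase-like factor that blocks early joining of subunits, was at 72.1 ± 0.520 TPM in ESCU and 60.4 ± 1.85 TPM in CON (0.25). NOB1 had 79.2, 77.0 and 84.0 TPM in the ESCU libraries, against 71.6, 71.6 and 72.8 TPM in the CON libraries. NOB1, the nuclease that makes the last cut of the small-subunit rRNA, was higher by little (0.15, adjusted p = 0.0114), and its call was lost without ESCU replicate 3 (0.12, adjusted p = 0.0549, limma). LTV1 had 34.6, 35.9 and 36.5 TPM in the ESCU libraries, against 35.5, 42.8 and 35.9 TPM in the CON libraries. The exception was LTV1, whose groups overlapped (-0.09, adjusted p = 0.278; 0.46 and called higher after median-of-ratios scaling). Together the 5 genes took 0.0289% ± 0.000544 of TPM in ESCU and 0.024% ± 8.78e-05 in CON.

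Of 13 large-subunit genes 4 were called higher and 6 lower in the deposited TPM (30.8% and 46.2%, against 13.6% and 70.0% of all tested genes), and 4 rose and 1 fell (30.8% and 7.69%, against 13.5% and 31.2%). NIP7 had 49.3, 46.2 and 46.0 TPM in the ESCU libraries, against 33.8, 34.3 and 32.1 TPM in the CON libraries. PPAN had 30.7, 28.4 and 32.8 TPM in the ESCU libraries, against 23.1, 22.8 and 23.8 TPM in the CON libraries. NIP7 (log2 fold change 0.49, adjusted p = 6.89e-06) and PPAN (0.38, adjusted p = 1.98e-04), which act on early large-subunit particles, were high in every ESCU library. GRWD1, a chaperone of a ribosomal protein, was at 22.6 ± 1.68 TPM in ESCU and 17.7 ± 0.747 TPM in CON (0.33), and NOP2, a cytosine methyltransferase of large-subunit rRNA, at 56.2 ± 1.13 TPM in ESCU and 49.3 ± 2.19 TPM in CON (0.19). These 4 rose.

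PES1, BOP1 and WDR12 form a complex needed to process the large-subunit rRNA, and their transcripts were unequal. WDR12 had 9.68, 8.80 and 9.64 TPM in the ESCU libraries, against 15.7, 16.6 and 17.5 TPM in the CON libraries. BOP1 had 55.2, 55.9 and 39.4 TPM in the ESCU libraries, against 69.2, 87.1 and 83.8 TPM in the CON libraries. PES1 had 149.6, 135 and 140.5 TPM in the ESCU libraries, against 154, 162 and 153 TPM in the CON libraries. All 3 were lower in every ESCU library in the deposited TPM, WDR12 at -0.76, adjusted p = 3.08e-06, BOP1 at -0.67, adjusted p = 3.67e-04 and PES1 at -0.14, adjusted p = 0.017; 70.3% of all tested genes were separated in this direction. WDR12 fell, with -0.24 after median-of-ratios scaling and -0.25 under quantile normalization. BOP1 was not called after median-of-ratios scaling (-0.12), and PES1 turned to 0.41. Relative to PES1 in the same library, the log2 ratio of WDR12 averaged -3.92 ± 0.046 in ESCU and -3.24 ± 0.094 in CON, and that of BOP1 -1.51 ± 0.29 in ESCU and -0.97 ± 0.155 in CON, so both partners were lower against PES1 in the ESCU libraries in the deposited TPM. The call of PES1 in the deposited TPM was lost without ESCU replicate 2 (-0.11, adjusted p = 0.0687) and without CON replicate 2 (-0.11, adjusted p = 0.0643, limma).

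**Figure D3:**
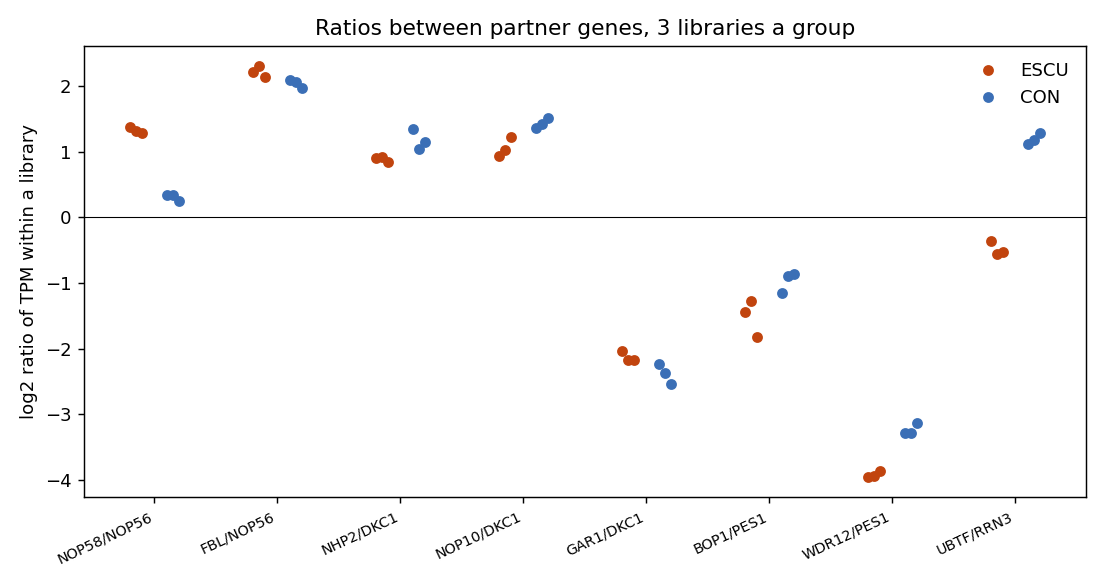
Log2 ratio of TPM between partner genes within each library (y axis), ESCU points left of CON points for each pair. NOP58/NOP56 is near 1.33 in ESCU and 0.31 in CON, and UBTF/RRN3 is below 0 in ESCU and above 0 in CON.

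The other large-subunit genes lay between -0.39 and 0.05. The placeholder protein gene MRTO4 (-0.15), the helicase gene DDX18 (-0.13) and RRP1 (-0.39) were called lower in the deposited TPM and higher after median-of-ratios scaling (0.40, 0.42 and 0.14). The call of DDX18 was lost without CON replicate 2 (-0.10, adjusted p = 0.0916) and without ESCU replicate 2 (-0.12, 0.0693) or 3 (-0.13, 0.053, limma). GNL3, the nucleolar GTPase nucleostemin, NOP16 and RRS1 were not called in the deposited TPM, at -0.07, -0.08 and 0.05, and were called higher after median-of-ratios scaling, at 0.48, 0.48 and 0.59.

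Several of these genes also carry snoRNA genes in their own span, which are processed from introns in the host transcript. In GENCODE, 8 of the 46 (17.4%) hold at least 1 annotated snoRNA gene on the same strand, 27 snoRNA genes in all, against 1.75% of all tested genes. The hosts are NOP56, NOP58, DKC1, NCL, WDR43, TSR1, PPAN and GNL3. The 8 hosts had a median log2 fold change of 0.12 and the 38 others one of -0.05. Of the hosts 4 rose (50.0%) and 0 fell, and of the others 12 rose (31.6%) and 3 fell (7.89%). Of all tested genes 13.5% rose and 31.2% fell. Whether hosts differ from the others was not tested. The snoRNAs themselves were not analysed here.

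The rest of the pathway was described with 6 further lists, each as counts beside the 13.6% called higher and 70.0% lower of all tested genes. Counts of genes that rose or fell stand beside the 13.5% and 31.2% of all tested genes. Of 41 other small-subunit factors 12 were called higher and 22 lower (median -0.19), and 12 rose and 2 fell. With 1 library left out, 9 to 10 of them were called higher. NGDN stood at 99.5 ± 2.22 TPM in ESCU and 50.8 ± 2.74 TPM in CON (log2 fold change 0.96) and UTP11 at 123 ± 2.08 TPM in ESCU and 63.8 ± 7.50 TPM in CON (0.94), while IMP3, a U3 snoRNP protein, fell to 28.0 ± 2.32 TPM in ESCU, against 65.3 ± 2.20 TPM in CON (-1.20), and TSR3, a modifying enzyme of small-subunit rRNA, to 35.3 ± 2.59 TPM in ESCU against 71.0 ± 4.52 TPM in CON (-0.99). Of 46 other large-subunit factors 16 were called higher and 16 lower (median -0.05), and 16 rose and 4 fell. RSL24D1, a placeholder for a ribosomal protein, was at 294.8, 294.5 and 264 TPM in the ESCU libraries, against 96.4, 106 and 98.4 TPM in the CON libraries (1.49), above the change of any of the 46. SBDS, which helps to release the finished large subunit for translation, was at 182 ± 5.83 TPM in ESCU and 98.7 ± 3.07 TPM in CON (0.87), and URB1 (-0.76) and the helicase gene DDX54 (-0.72) fell.

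Of 12 snoRNP assembly factors 8 were called lower and 4 were not called in the deposited TPM (median -0.34; 1 was called higher without CON replicate 1), and 2 fell: the AAA+ ATPase gene RUVBL1, at 95.6 ± 1.21 TPM in ESCU and 178 ± 6.63 TPM in CON (-0.89), and its partner PIH1D1 (-0.83). NAF1 (0.16) and NUFIP1 (0.05) were not called. Of 14 nuclear exosome genes 2 were called higher and 8 lower (median -0.26). EXOSC6 (0.51) and the nuclease gene DIS3 (0.25) rose and EXOSC7 (-1.11) fell. EXOSC5 was at -0.70 in the deposited TPM, -0.14 and not called after median-of-ratios scaling, and -0.41 and called lower under quantile normalization. Of 13 genes for polymerase I subunits and its promoter complex 4 were called higher and 8 lower (median -0.26; 2 higher without ESCU replicate 3), and the 4 called higher rose. TAF1D, a subunit of the promoter complex, was at 65.3 ± 4.27 TPM in ESCU and 39.2 ± 2.27 TPM in CON (0.72) and the termination factor gene TTF1 at 15.8 ± 0.935 TPM in ESCU and 11.8 ± 1.37 TPM in CON (0.40). POLR1G (-0.65) and POLR1A (-0.58), which encodes the catalytic subunit, were called lower in the deposited TPM and had values of -0.16 and -0.06 after median-of-ratios scaling. Of 79 cytosolic ribosomal protein genes 15 were called higher and 23 lower (median -0.05; 8 higher without ESCU replicate 2 and 9 without CON replicate 3). They took 21.5% ± 0.193 of TPM in ESCU and 22.3% ± 0.0426 in CON. Their log2 fold changes spread less (SD 0.16) than those of the 46 nucleolar factors (SD 0.41). Of the 79, 6 rose (7.59%, against 13.5% of all tested genes). RPS13 at 0.23 and RPL39 at 0.22 were at the top and RPL32 at -0.60 and RPL15 at -0.49 at the bottom. After median-of-ratios scaling 77 of the 79 were called higher and none lower, against 38.0% and 35.8% of all tested genes. Under quantile normalization 6 were called higher and 37 lower, against 31.4% and 39.9% of all tested genes. RPS13 rose, while RPL39, RPL32 and RPL15 did not keep a call with one sign.

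**Figure D4:**
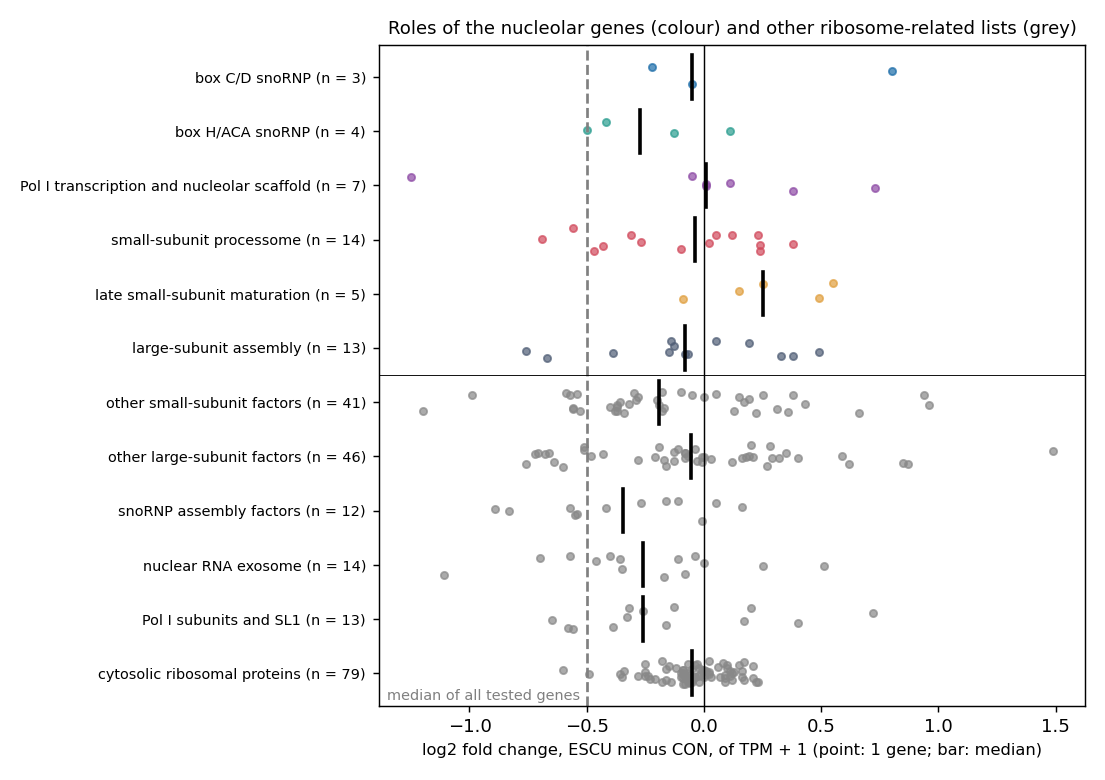
Log2 fold change of each gene (points, x axis, ESCU minus CON on log2(TPM + 1)) by role of the 46 genes in colour and by other list in grey, with the median of each list as a black bar and the median of all tested genes as a dashed line. Ribosomal protein genes cluster near 0, while the nucleolar roles spread from -1.25 to 0.8.

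Some values are less certain because genes share sequence. In GENCODE 16 of the 46 share exon bases with another coding gene, 11 of these only on the opposite strand, and the sources used here do not say whether counting used strand. Among the genes named for a rise, NIP7 shares up to 957 bases with COG8 on the opposite strand, TSR1 up to 1146 bases with SRR or SGSM2 on the opposite strand, UTP15 up to 244 with ANKRA2 and UTP4 up to 70 with CHTF8, both on the opposite strand, and PPAN shares 1447 bases with the read-through gene PPAN-P2RY11, NOP2 2550 bases with the gene AC006064.6 and GRWD1 350 bases with KCNJ14, on the same strand. For NPM1 45 pseudogenes carry its name, and RRN3 has 2.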

How the data were processed

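Total RNA of 6 CAL-27 libraries was sequenced as single 50-base reads on the BGISEQ-500 platform, per the labels' protocols. The authors deposited 1 table of TPM per gene, without counts, so depth is unknown. The submitters' processing notes name HISAT and Bowtie2, without versions, and the build GRCm38.p6, a mouse build, although the genes listed are human; the quantifier and annotation are not given in the sources used here.

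Genes averaging 1 TPM or more were tested on log2(TPM + 1), which understates changes of low genes, with limma 3.58.1 (R 4.3.3) with a mean-variance trend over all 6 libraries, ESCU minus CON, and Benjamini-Hochberg adjustment over 11927 genes at 0.05. On simulated libraries of 11927 genes for this comparison, 48 of 50 genes raised by 0.5 on the log2 scale and 49 of 50 lowered by 0.5 were recovered. The changed genes were drawn from those above about 5 TPM in CON. In these libraries 11727 genes were left unchanged and no whole library was shifted. The recovery therefore does not bear on the choice of scaling. The members and the other gene lists were chosen with earlier results of these data known. In each role the 2 highest and 2 lowest log2 fold changes were named, with any member not called or changing call or sign under another scaling; of other lists, the 2 highest and 2 lowest with at least 5 TPM in a group. Partner ratios, paralogs, MYC and the GC and length corrections were chosen after values were seen. Alternatives were median-of-ratios scaling, quantile normalization, removal of the 20 highest genes, pseudocounts of 0.1 and 0.5, no filter, a filter of 5 TPM, no trend, array weights, limma's treat (minimum 0.5), a fit with replicate number as a block, and fits without each library in turn. Promoter windows came from RefSeq (GRCh38.p14), matched by gene ID; transcript GC content and length, snoRNA genes and overlaps came from GENCODE. Tables and figures were made with Python 3.11.15, pandas 2.3.3 and matplotlib 3.10.9.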

Additional observations from a re-analysis of the deposited data

How the results depend on the processing

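Scaling and a required minimum change moved the most calls, and signs given as turned are those of genes called in at least 1 of the fits compared. After median-of-ratios scaling the members were called 37 higher and 3 lower, all tested genes 4532 and 4266, other small-subunit factors 30 and 2, other large-subunit factors 35 and 4, snoRNP assembly factors 5 and 2, exosome genes 9 and 1, polymerase I genes 8 and 0, and ribosomal proteins 77 and 0; the members' summed TPM changed by 0.55 (log2), against -0.00 as deposited. The sign turned for NOP56 (0.34), FBL (0.51), DKC1 (0.43), NHP2 (0.14), NOP10 (0.06), TCOF1 (0.50), WDR3 (0.05), WDR75 (0.23), NOP14 (0.44), RRP9 (0.27), DDX10 (0.10), LTV1 (0.46), PES1 (0.41), NOP16 (0.48), RRP1 (0.14), MRTO4 (0.40), DDX18 (0.42), GNL3 (0.48) and RPL15 (0.06). Quantile normalization gave 27 and 6, 3749 and 4756, 23 and 3, 32 and 7, 6 and 4, 7 and 3, 7 and 1, and 6 and 37 in the same order, a sum of 0.12, and turned DKC1 (0.09), TCOF1 (0.24), WDR3 (0.01), WDR75 (0.05), NOP14 (0.28), RRP9 (0.09), DDX10 (0.06), LTV1 (0.28), PES1 (0.06), RRP1 (0.02), MRTO4 (0.16), DDX18 (0.15) and GNL3 (0.25); NOP16, called in neither fit, was 0.15. Without the 20 highest genes the members were called 25 higher and 11 lower, 2 snoRNP assembly factors higher and ribosomal proteins 41 and 7, with a sum of 0.16 and the sign turned for FBL (0.11), DKC1 (0.03), TCOF1 (0.11), PES1 (0.02), MRTO4 (0.01) and DDX18 (0.02); NOP14 (0.06), LTV1 (0.07), NOP16 (0.08) and GNL3 (0.09), called in neither fit, also changed sign. Limma's treat, with a minimum of 0.5, called 2 members higher (NOP58, DDX21) and 3 lower (UBTF, NAT10, WDR12), all tested genes 572 and 4224, other small-subunit factors 3 and 2, other large-subunit factors 3 and 5, exosome genes 0 and 2, polymerase I genes 1 and 0, ribosomal proteins 0 and 0, and 2 snoRNP assembly factors lower; its stricter question lowers every count by construction. Without the trend 6 ribosomal proteins were called higher, and with the GC trend removed 24, with the sign turned for FBL (0.13), TCOF1 (0.15) and PES1 (0.04); among members called in neither fit NCL (-0.01), NPM1 (-0.05), UTP6 (-0.02) and NOP16 (0.02) also changed sign. For the other changes the cause was not tested. With either other pseudocount, without the filter and with the length trend removed, 46 of 46 members stayed on their side of the threshold, and the sign changed only for NCL, called in neither fit (-0.02 with the length trend removed).

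With 1 library left out, members were called 15 to 16 higher and 14 to 17 lower, all tested genes 1502 to 1593 and 8088 to 8278, other small-subunit factors 9 to 10 and 20 to 23, other large-subunit factors 15 to 16 and 14 to 16, snoRNP assembly factors 0 to 1 and 6 to 8, exosome genes 2 to 2 and 7 to 8, polymerase I genes 2 to 4 and 7 to 9, and ribosomal proteins 8 to 16 and 19 to 25; 6 members changed call. Same-numbered libraries did not deviate together (correlations 0.021, -0.034 and 0.011), so the numbers were not taken as pairs; with the replicate block 15 members were called higher and 17 lower, UTP18 being lost. Depth is unknown, so no counting error can be given.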

Other observations

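Paralogs of the members, looked up after the members' values had been seen, differed in direction. DDX50, the close relative of the nucleolar helicase gene DDX21, was at 42.1 ± 1.77 TPM in ESCU and 66.9 ± 1.70 TPM in CON (log2 fold change -0.66, adjusted p = 3.69e-07, limma), with -0.11, not called, after median-of-ratios scaling and -0.33 under quantile normalization. NPM3, a relative of the chaperone gene NPM1, was at 105 ± 2.57 TPM in ESCU and 163 ± 6.81 TPM in CON (-0.62). Its value was -0.07, not called, after median-of-ratios scaling and -0.42, called lower, under quantile normalization. Of the relatives of the rRNA methyltransferase gene NOP2, NSUN2, which methylates mainly tRNA, rose to 194 ± 4.75 TPM in ESCU, against 152 ± 1.72 TPM in CON (0.35, adjusted p = 6.49e-06, limma). NSUN5, which methylates large-subunit rRNA, was at 29.6 ± 0.786 TPM in ESCU and 45.7 ± 2.04 TPM in CON (-0.61). The value of NSUN5 was -0.07, not called, after median-of-ratios scaling and -0.24, called lower, under quantile normalization. RRP1B (-0.48) and GNL3L (-0.34) were called lower in the deposited TPM and had values of 0.05 and 0.15, neither called, after median-of-ratios scaling.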
